A study of Gallus gallus with 26 samples.

Results

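In the complexus muscle of broiler chickens (Gallus gallus), 24 of 8758 listed genes (0.274%) met a rule for a level at least 2 times higher on each of 4 earlier days than on embryonic day 21 (E21), with limits on the earlier course. They are called the E21-low genes here. The members were chosen by the day means of the deposited normalised counts, with 0.5 added before ratios. The means of E15, E17, E19 and E20 each had to be at least 2 times that of E21, and the E20 mean had to be at least 20 and at least 0.7 times that of E15. Neither E19 nor E20 was to reach 2 times E15. Every library entered this choice, so the fall from E20 to E21 is described below and nothing is read from the tests of that step. Of the 24 genes, 12 were already lower at E20 than at E19 by the test used here, where 13.6% of all genes tested were lower. The rule used the same day means and bounds this step through E15, and the difference from that share was not tested. That share includes genes with an E20 mean under 20, which could not be members. The other 12 had no call at that step. With library totals as the scale 7 of the 24 were lower, where 5.56% of all genes tested were.

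The complexus, a muscle of the neck, is used by the embryo to break the shell at hatching. It is known to swell towards the end of incubation and to regress after hatching. Embryonic skeletal muscle in birds moves at the same time from growth by fusion of myoblasts to working fibres, and the hatching bird passes from the oxygen supply of the egg membranes to its lungs. The deposited table gives versioned Ensembl identifiers without names, and 0 of its 8758 identifiers matched a table of 25635 RefSeq genes. Roles of the single genes, markers of muscle or of other cell types, and gene sequences are therefore not given here.

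The 26 libraries were made from frozen complexus tissue and sequenced by MARS-Seq, per the series description, a method that counts tags rather than whole transcripts. There were 6 libraries for each of E15 and E17, 5 for each of E19 and E20, and 4 for E21. All birds are labelled as broiler chickens, with embryonic day as the treatment and a single batch. The labels give no line, sex or individual treatment, and do not say whether each library came from a separate bird, so a p-value here speaks of the spread between libraries, which may be technical. The series description names hatch and chick placement where the labels name E20 and E21, and the labels' names are used here. In bulk tissue, fewer cells of a type and less RNA per cell cannot be told apart.

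Library totals ranged from 580768 to 2208872 counts. At E20 they lay between 632074 and 1373614 and at E21 between 661931 and 2046622. Some of the E21-low genes had few counts at E21, so the size of their fall is less exactly known. The least counted one had 39 counts over the 4 E21 libraries. The lowest count in a single library was 2, and none had fewer. The counts are of tags, and the use of molecular identifiers is not given. An order of genes by count therefore need not be an order by number of transcripts. All 24 genes passed the filter on low counts and entered a fit of 5901 genes.

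The fall from E20 to E21 was between 2.06-fold and 18.5-fold, with a median of 2.95-fold, on the deposited normalised counts. In the edgeR fit the log2 fold changes ran from -1.09 to -4.19 with a median of -1.65, against a median of -0.00147 over all genes tested. The 3 largest falls were -4.19, -2.89 and -2.79, 5 of the values were at or under -2, and 15 at or under -1.5. The quasi-likelihood test of edgeR called 24 of the 24 lower at an adjusted p under 0.05, where 8.59% of all genes tested were called lower. Because the rule used this contrast, nothing is read from that count. In 20 of the genes the highest E21 library lay below every E20 library, and in 18 it lay below all 22 earlier libraries. Among the 3481 genes with an E20 mean of at least 20, these shares were 9.94% and 4.28%. The rule bounds this separation as well, so nothing is read from the difference.

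**Figure D1:**
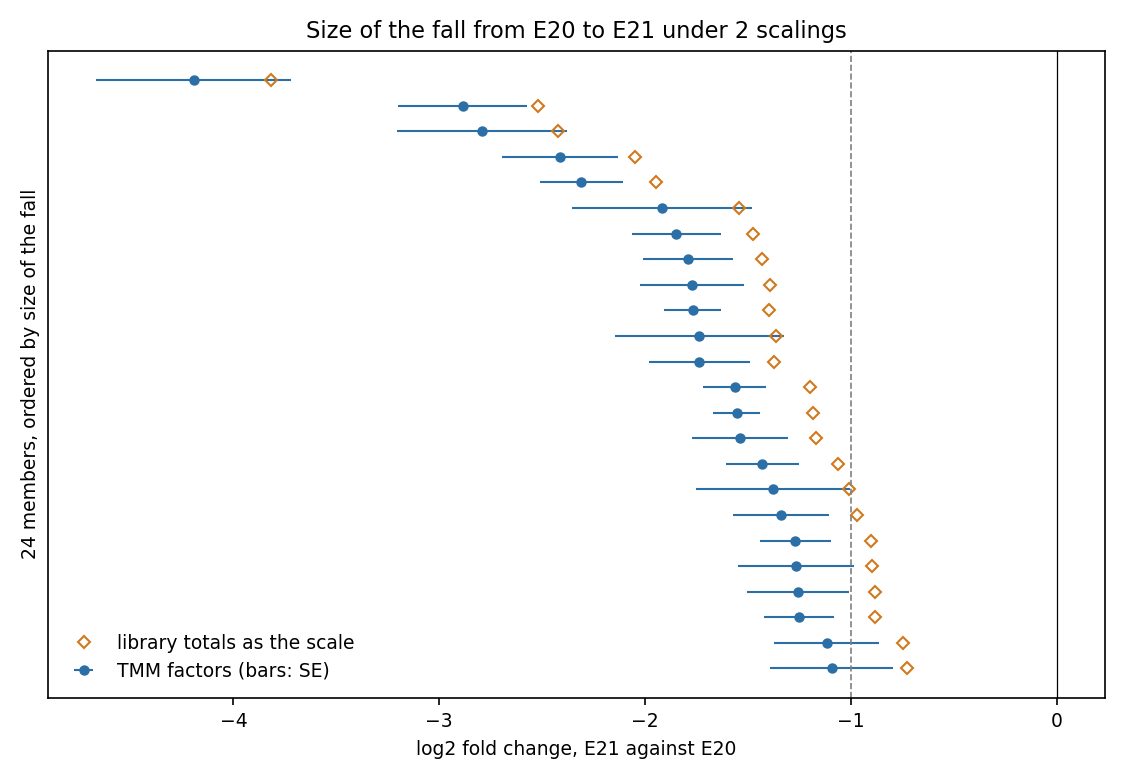
Log2 fold change of E21 against E20 for the 24 E21-low genes, one row per gene, ordered by size. Filled points with SE bars are the edgeR values with TMM factors, open diamonds the values with library totals as the scale, and the dashed line marks 2-fold; with TMM factors the points run from -1.09 to -4.19, and with library totals 17 of 24 stay at or beyond 2-fold.

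The size of the fall depended on the scale. TMM factors, which correct library totals for genes that take a changing part of the counts, lay between 0.97 and 1.02 at E20 and between 1.22 and 1.33 at E21. With library totals as the scale, the median of all genes tested moved to 0.37 for this step and the median of the E21-low genes to -1.28. On that scale 17 of the 24 were at least 2-fold lower. A change of scale shifts all genes of a library alike, so it leaves the distance between the medians about as it was.

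Before E21, 16 of the 24 genes were called at 1 or more of the steps between successive days, and 8 at none. The matching shares over all genes tested were not determined, so these counts only describe the list. The rule puts no limit of its own on the steps between successive days up to E20, although it bounds them through E15, and these steps were tested in the fit of all 26 libraries. The shares over all genes tested are over 5901 genes, of which 3480 had the E20 mean of at least 20 that members needed. Shares over those 3480 genes were not determined for these steps. From E15 to E17, 7 of the 24 rose, by 0.46 to 0.66 on the log2 scale, 3 fell, by 0.53 to 1.14, and 14 did not pass the test (edgeR quasi-likelihood test, Benjamini-Hochberg adjusted p under 0.05). Over all genes tested, 9.08% were called higher and 8.66% lower at E17. The median log2 fold change was 0.03 for the E21-low genes and -0.05 for all genes tested. The count of 3 that fell became 1 without any one of E15 replicates 1, 2, 3 and 4 or E17 replicates 2, 4 and 6. In these settings 5.75% to 7.76% of all genes tested were called lower. With library totals as the scale, which shifted the median of all genes to -0.29, 4 were called higher and 6 lower. Over all genes tested on that scale, 3.14% were called higher and 25.3% lower.

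From E17 to E19, 5 of the 24 rose, by 0.60 to 1.06 on the log2 scale, none fell and 19 did not pass the test. The shares over all genes tested were 9.88% higher and 7.35% lower. The median was 0.39 for the E21-low genes and -0.02 for all genes. The count of 5 rested on single libraries: it was 1 without E19 replicate 2, 2 without any one of E17 replicates 1, 2 and 6, and 3 without E17 replicate 4. In these settings 8.68% to 9.37% of all genes tested were called higher. With library totals as the scale, where the median of all genes was -0.27, 1 was higher and 4 were lower. Over all genes tested on that scale, 5.49% were higher and 21.1% lower. Of the 3 genes that had fallen at E17, 2 rose again here, and the matching share over all genes tested was not determined.

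From E19 to E20, 12 of the 24 fell, 6 of them at least 2-fold, and none rose. Over all genes tested, 13.6% were called lower and 13.9% higher, and 4.86% were lower by at least 2-fold. The falls lay between 0.46 and 1.24 on the log2 scale. The median of all 24 was -0.57, against 0.01 for all genes tested. With library totals as the scale, where the median of all genes was 0.35, 7 of the 24 were lower, 0 of them by at least 2-fold, and none higher. Over all genes tested on that scale, 5.56% were lower and 29.8% higher. Leaving out E20 replicates 4 and 5 together, a setting chosen after seeing the data, left 8 lower, and 3 of the 24 had falls of at least 2-fold. Over all genes tested, 10.005% were called lower in that setting, also fewer than with all libraries. The matching share for falls of at least 2-fold was not determined.

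The 7 genes that rose at E17 all fell at E20, by 0.46 to 1.21 on the log2 scale. Over all genes tested, 202 of the 536 that rose at E17 fell at E20 (37.7%). Their E19 means were 1.14 to 1.99 times those of E15, and their E20 means 0.704 to 0.91 times. Of the other 5 that fell at E20, 3 had no call before, 1 had risen at E19, and 1 had fallen at E17 and risen at E19. The rule used the same day means and bounds this pairing, since E19 and E20 both had to stay under 2 times E15, and the difference from all genes was not tested. A further 8 of the 24 had no call at any of the 3 steps up to E20, a count for which no share over all genes tested was determined. In these 8 the E17 means were 0.8 to 1.08 times the E15 means, the E19 means 0.755 to 1.5 times and the E20 means 0.768 to 1.18 times. They include the gene with the largest fall at E21.

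**Figure D2:**
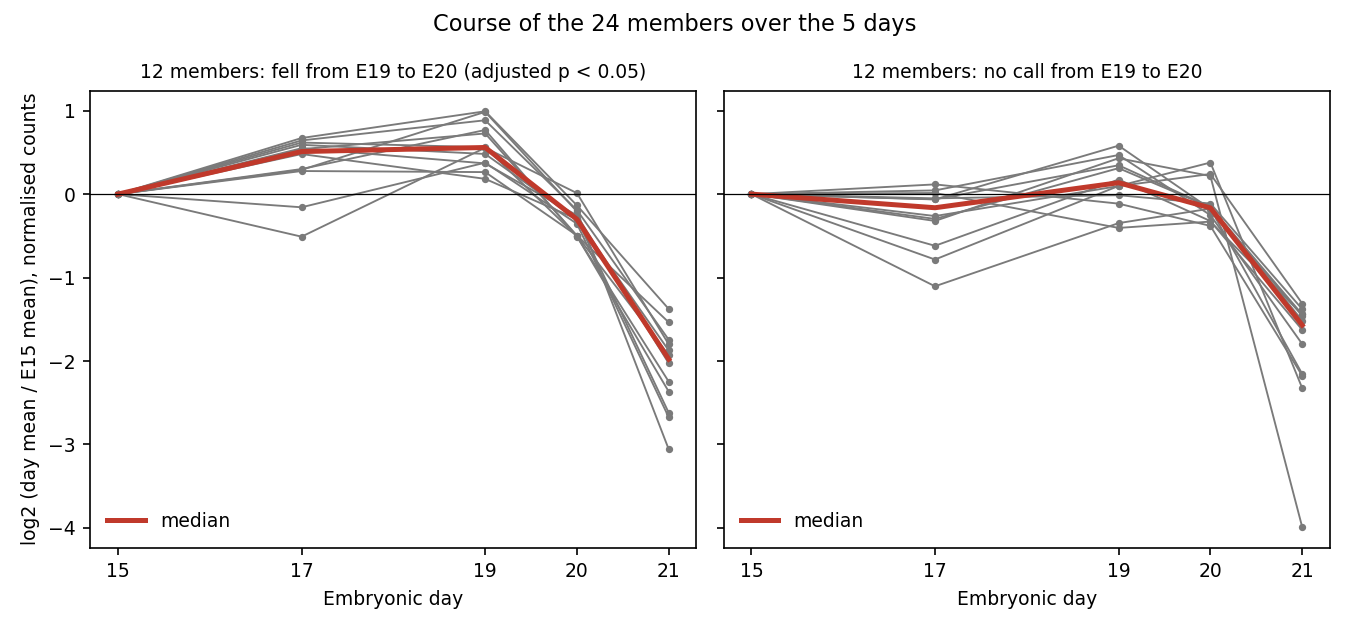
Day means of the 24 E21-low genes as log2 ratios to the E15 mean (normalised counts, 0.5 added), against embryonic day. Grey lines are single genes and the red line their median; on the left are the 12 genes that fell from E19 to E20, whose E19 means were 1.14 to 1.99 times E15, and on the right the 12 with no call at that step, whose E19 means were 0.755 to 1.5 times E15.

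Over the whole period 13 of the 24 were highest at E19, 7 at E17, 2 at E15 and 2 at E20. The E20 mean was below the E15 mean in 20 genes and below the E19 mean in 20 genes. It lay between 0.703 and 1.3 times E15, with a median of 0.853.

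Gene ENSGALG00000028612.2 had the largest fall and the highest E20 mean of the 24. In normalised counts its E15 libraries ranged from 6390 to 18495 with a median of 8043, and its E17 libraries from 5373 to 10233 with a median of 7008. At E19 the libraries of replicates 1, 2, 3, 5 and 6 had 32146, 7844, 9629, 6248 and 7844. At E20 replicates 1 to 5 had 14992, 17761, 12886, 4550 and 4776. The E21 libraries of replicates 1, 3, 5 and 6 had 904, 555, 535 and 387. All E21 libraries were thus far below the lowest earlier one, while the E20 libraries fell into 3 high and 2 lower values and 1 E19 library was more than 3 times the next. The E20 mean was 10993 ± 6032 (SD, n = 5) and that of E21 was 595 ± 219 (SD, n = 4), which in the fit gave a log2 fold change of -4.19 (SE 0.47). Its steps before E21 did not pass the test: -0.34 (SE 0.34, adjusted p = 0.543) from E15 to E17, 0.75 (SE 0.36, adjusted p = 0.161) from E17 to E19 and -0.19 (SE 0.38, adjusted p = 0.751) from E19 to E20, in edgeR with Benjamini-Hochberg adjustment. Without E19 replicate 1 the step from E17 to E19 was 0.053 and that from E19 to E20 was 0.50, and the E19 mean went from 12742 ± 10913 (SD, n = 5) to 7891 ± 1381 (SD, n = 4).

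ENSGALG00000001926.5 had the next highest E20 mean and, over all libraries, the most counts of the 24 genes. It was singled out after its values were seen. Its E15 libraries ranged from 6698 to 10299 normalised counts with a median of 7827, and its E17 libraries from 10884 to 15031 with a median of 12183. At E19 replicates 1, 2, 3, 5 and 6 had 7944, 12027, 12882, 12561 and 12671, and at E20 replicates 1 to 5 had 6795, 7413, 7718, 5234 and 6547. At E21 replicates 1, 3, 5 and 6 had 1934, 2599, 2185 and 2366. E17 lay above E15 and E20 lay below E19 without overlap, and E21 below E20. The level rose from E15 to E17 by 0.57 on the log2 scale (SE 0.13, adjusted p = 0.00159) and fell from E19 to E20 by 0.76 (SE 0.14, adjusted p = 7.66e-05), in edgeR with Benjamini-Hochberg adjustment. The fall from E20 to E21, used by the rule, was -1.57 (SE 0.15).

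The largest rises at E17 without overlap of the libraries of both days were those of ENSGALG00000034919.2 and ENSGALG00000028567.3. Both genes were chosen by this rise, its adjusted p and the lack of overlap, so these values describe the choice and are no separate support. ENSGALG00000034919.2 ranged from 80.8 to 114.5 normalised counts at E15, with a median of 93.5, and from 131.9 to 178.6 at E17, with a median of 152.5. At E19 its libraries had 174.8, 218.5, 209.2, 174.9 and 184.2, at E20 81.6, 72, 104.7, 89.3 and 90.9, and at E21 27.2, 30, 38.5 and 51.7, in order of replicate number. E20 thus overlapped the range of E15. On the log2 scale E20 lay about as far below E19 as E21 lay below E20. The rise at E17 was 0.66 on the log2 scale (SE 0.13, adjusted p = 0.000699), the step to E19 was 0.32 (SE 0.14, adjusted p = 0.102), and the level fell at E20 by 1.10 (SE 0.15, adjusted p = 1.49e-06), in edgeR with Benjamini-Hochberg adjustment. From E20 to E21 it changed by -1.27 (SE 0.17).

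ENSGALG00000028567.3 had the lowest fitted spread of the 24, with a biological coefficient of variation of 11.7%, against 41.3% for ENSGALG00000028612.2 and a median of 21.8% over the list. Its E15 libraries ranged from 811 to 988 normalised counts with a median of 921, and its E17 libraries from 1117 to 1601 with a median of 1430. At E19 the libraries had 1639, 1784, 1611, 1673 and 1675, at E20 827, 746, 729, 904 and 767, and at E21 264, 328, 250 and 240, in order of replicate number. No E19 library overlapped E20, and no E20 library overlapped E21. It rose at E17 by 0.63 on the log2 scale (SE 0.09, adjusted p = 1.63e-05), and it fell at E20 by 1.06 (SE 0.10, adjusted p = 2.17e-09), in edgeR with Benjamini-Hochberg adjustment. From E20 to E21 it changed by -1.55 (SE 0.11). With library totals as the scale the step from E19 to E20 was -0.72, which is under 2-fold.

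**Figure D3:**
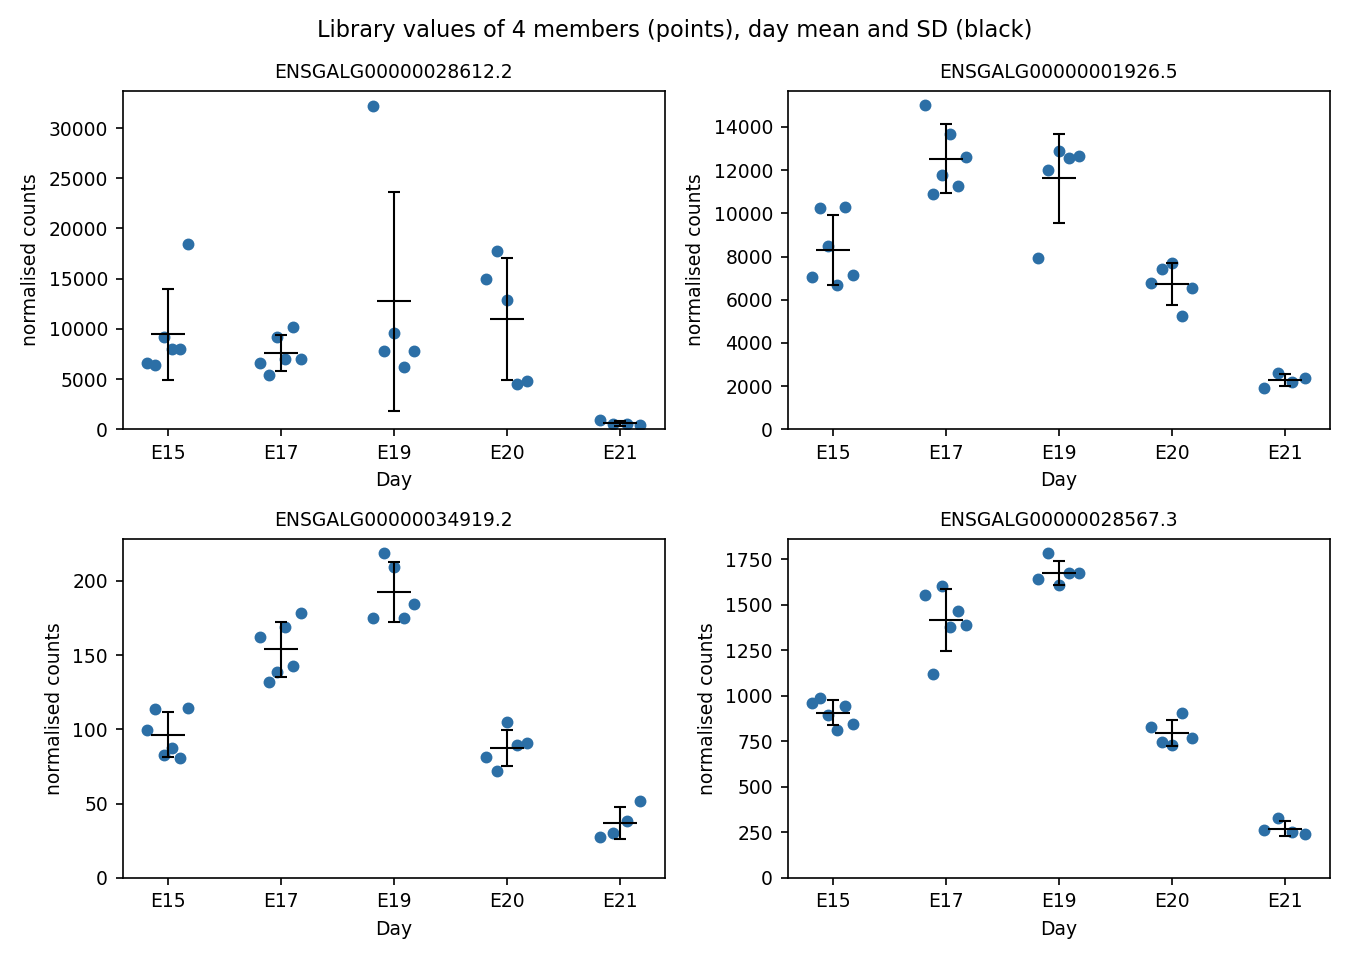
Normalised counts of 4 E21-low genes by day, on linear axes from 0. Points are libraries, and black marks give the day mean and SD (n = 6, 6, 5, 5 and 4); ENSGALG00000028612.2 has single libraries of 18495 at E15 and 32146 at E19 and spans 4550 to 17761 at E20, while the other 3 genes come down from E19 to E20 and again to E21 without overlap.

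The rest of the list covered a wide range of levels. The E20 mean was at least 1000 normalised counts in 4 genes, from 100 to 1000 in 8 and under 100 in 12, down to 22.01. The 4 highest are all among the 50 genes with the most counts in the muscle, 2 of them among the first 20. At E21 the means ran from 6.49 to 2271.

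The libraries of E20 varied in these genes, and part of that variation ran the same way in most of them. The median coefficient of variation between libraries was 34.3% at E20, against 20.8% for the 3480 tested genes with an E20 mean of at least 20. At E15 these medians were 18.8% and 16.8%, at E17 18.1% and 17.4%, at E19 25.7% and 23.6%, and at E21 26.7% and 16.5%. The sets were not matched on level, and the median E21 mean of the 24 was 37.7 normalised counts, so differences in count level enter this comparison. In E20 replicate 5, 21 of the 24 lay below their own E20 mean of log2 CPM, and in E20 replicate 4, 18 did. Over the 3480 genes the shares below the mean in these libraries were 48.2% and 45.5%. In E20 replicates 1, 2 and 3, 6, 8 and 9 of the 24 lay below it. One-sided counts also occurred on another day: 3 of the 24 lay below the day mean in E15 replicate 2 and 18 in E15 replicate 4. The median deviation of the 24 genes was -0.27 in E20 replicate 4 and -0.31 in replicate 5 on the log2 scale, and in the libraries of the other days it ran from -0.15 to 0.23. The rule used the day means, but a gene whose E20 mean is raised by some libraries meets its limits more easily, so the spread at E20 is not free of the choice. Of the 24, 6 no longer met the rule without E20 replicate 1, 2 without replicate 2 and 4 without replicate 3. Without replicate 4 it was 1, and without replicate 5 it was 0. No test was made of the spread or of the shared direction, because the genes were not measured independently of one another.

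E20 replicates 4 and 5 were low, but in most of the 24 genes they lay above E21. In E20 replicate 4, 22 of the 24 genes were above their highest E21 library, in replicate 5 21 were, and in each of the other 3 E20 libraries all 24 were. The rule asked for an E20 mean at least 2 times that of E21, so it bounds these counts and they only describe the list. The matching shares over all genes were not determined. The 2 libraries had totals of 1158973 and 665356 counts and lay within the range of the other E20 libraries. Without both, the 24 genes met the rule, which a higher E20 mean favours, and so did 12 other genes.

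**Figure D4:**
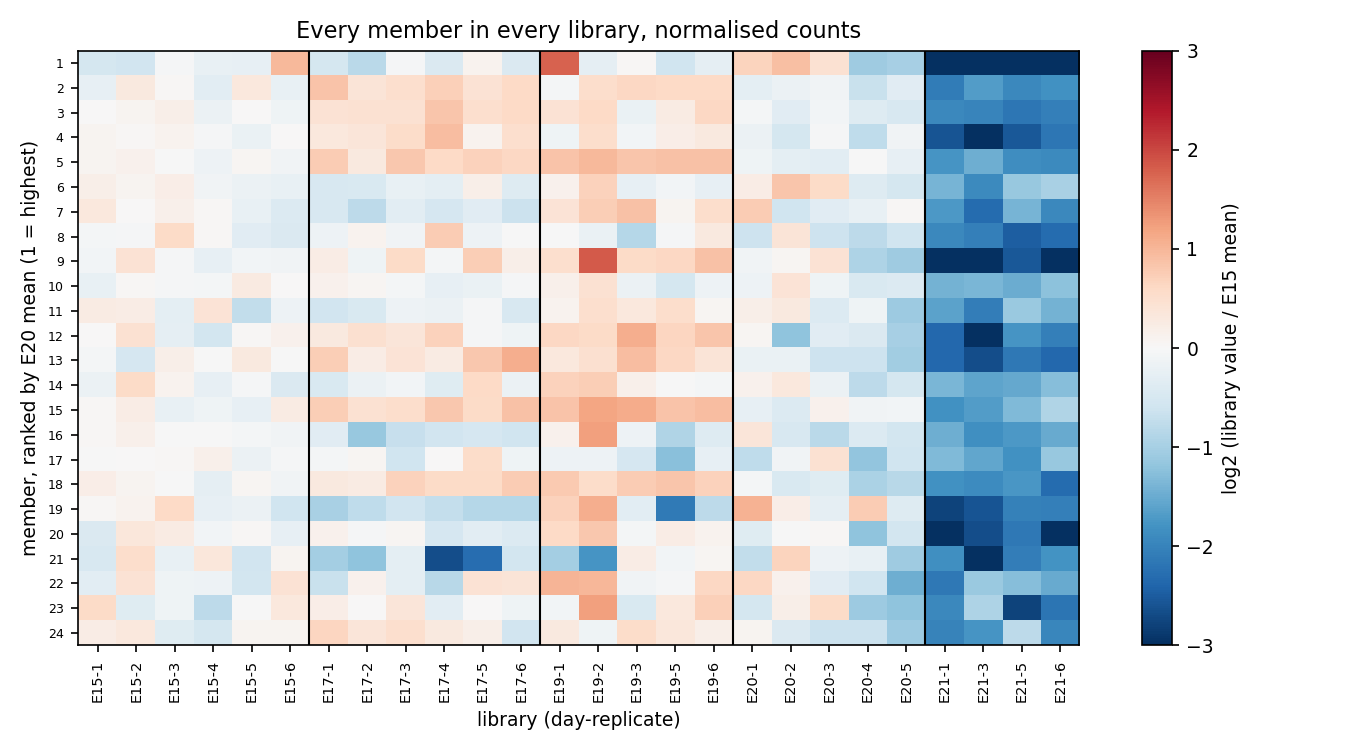
Every E21-low gene (rows, ranked by E20 mean) in every library (columns, named by day and replicate) as the log2 ratio of the normalised count to the gene's E15 mean, with blue for lower and red for higher and ratios beyond -3 or 3 drawn in the end colours. The 4 E21 columns are blue throughout, and within E20 the columns of replicates 4 and 5 are mostly lower than those of replicates 1 to 3, with 18 and 21 of 24 genes below their E20 mean.

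As a share of all counts, the 24 genes held a mean of 2.95% at E15 and 2.97% at E17. The mean was 2.78% at E19 and 2.5% at E20, and 0.643% at E21. The SDs over the 6, 6, 5, 5 and 4 libraries of these days were 0.419, 0.156, 0.587, 0.713 and 0.0352 percentage points in the same order. The E20 libraries ranged from 1.59% to 3.07% and the E21 libraries from 0.594% to 0.672%. This share is not scaled by TMM factors and is given without a test, since the genes were chosen by the same values. The gene with the most counts over all libraries, ENSGALG00000001926.5, alone held 0.629% at E20 and 0.274% at E21. ENSGALG00000028612.2 had 44724 counts over the E20 libraries and 3901 over those of E21. It had 10114 of 632074 counts in E20 replicate 2 and 4842 of 1158973 in replicate 4, so it weighs on the fall and on the spread at E20. Both genes are among the 20 with the most counts. Without those 20 the share was 1.29% at E20 (1.07% to 1.49%) and 0.381% at E21. Up to E19 the summed share of the list moved by less than its spread. From E15 to E17 the share of ENSGALG00000001926.5 went from 0.86% ± 0.151 to 1.08% ± 0.121 (SD, n = 6 on each day). That of the other genes went from 2.09% ± 0.458 to 1.89% ± 0.16.

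**Figure D5:**
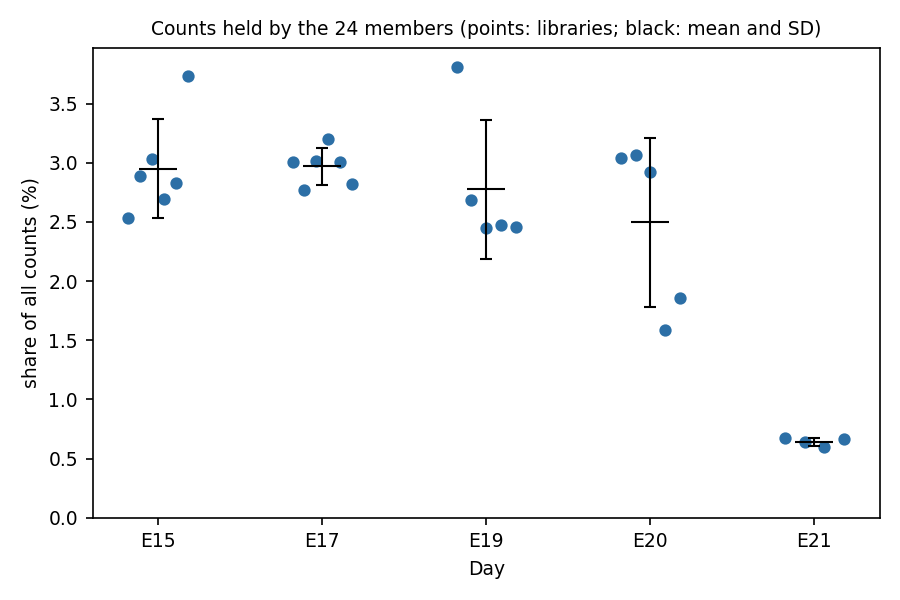
Share of all counts held by the 24 E21-low genes in each library (points), with day mean and SD in black, on a linear axis from 0. Day means are 2.95%, 2.97%, 2.78% and 2.5% up to E20 and 0.643% at E21, and E20 spans 1.59% to 3.07%. Without the 20 genes with the most counts, 2 of which are members, the means are 1.29% at E20 and 0.381% at E21.

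All 24 genes passed, in the authors' deposited table, the thresholds of an adjusted p of 0.05 and a log2 fold change of 1 for E21 against E20. All were lower, among 282 of the 8758 listed genes lower by the same thresholds. The rule asked for a 2-fold fall in the authors' own normalised counts, so this was nearly set by it and nothing is read from it. For E20 against E19, 6 of the 24 passed in the authors' deposited table, all lower, among 358 of the 8758 listed genes lower by the same thresholds. The authors' deposited table places 20 of the 24 in its cluster 2 of 172 genes and 2 in cluster 1, and leaves 2 in none. Of the other set of clusters, attributed to maSigPro, 9 of the 24 belong to cluster 4, which holds 47 genes, and 15 to none. All 9 are among the 12 genes that fell at E20 and none among the other 12. The clusters come from the same libraries and add no independent evidence.

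The 24 genes are the remainder of a larger set that was low at E21. Of 3481 genes with an E20 mean of at least 20, 197 were at least 2 times higher at E20 than at E21, and in 91 of these the 3 earlier days were also at least 2 times E21. From the 91, 54 were left out because E20 was under 0.7 times E15, and 13 because E19 or E20 reached 2 times E15. The median log2 fold change of E21 against E20 was -1.65 in the E21-low genes, -1.80 in the 13 and -1.43 in the 54. For E20 against E19 the medians were -0.57, -0.92 and -0.70. These sets differ by construction, and the differences were not tested.

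The boundaries of the list run through a continuous range. The members nearest the limit of the fall had ratios of 2.01 and 2.05 between their lowest earlier day and E21, and the nearest genes outside 1.97 and 1.94. For E20 against E15 the nearest members had 0.703 and 0.704 and the nearest outside 0.69 and 0.689. For the peak condition they had 1.99 and 1.98 inside and 2.04 and 2.06 outside, and for the E20 mean 22.01 and 22.2 inside and 19.0 and 14.5 outside. Leaving out each of the 26 libraries in turn, 11 of the 24 met the rule every time, among them ENSGALG00000028612.2, ENSGALG00000001926.5 and ENSGALG00000028567.3. ENSGALG00000034919.2 dropped out in 6 of the 26. The list depended more on the scale: with library totals 9 of the 24 met the rule, and ENSGALG00000034919.2 did not.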

How the data were processed

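Counts per gene and library were deposited by the authors as raw counts, per the file headers, after alignment with STAR 2.7.10a and counting with HTSeq 2.0.2, per the submitters' processing notes. The sources used here do not give the genome build, the annotation, the strand setting or the use of molecular identifiers, so overlapping or near-identical genes may share counts. The deposited normalised counts, a signal per the file headers, equal the raw count divided by 1 factor per library, within 0.000112 for counts over 100. The authors also deposited log2 fold changes, adjusted p-values and cluster numbers, for which the processing notes name DESeq2.

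Genes were chosen on the deposited normalised counts. Members and lists were chosen with earlier results of these data known. Tests were made in R 4.3.3 with edgeR 4.0.16 (quasi-likelihood) on the raw counts, with TMM factors, filterByExpr by day (minimum count 10, minimum total 15), day as the only term over all 26 libraries and Benjamini-Hochberg adjustment over 5901 genes. The SE was derived from the log2 fold change and the F statistic, as |log2 fold change|/√F. Within-day deviations used log2 CPM with a prior count of 2. The fit was tested on simulated data for the step from E20 to E21 only, with the spread taken from the fit itself. The earlier steps were not tested in this way. In 56 pairs of replicates the chi-square per degree of freedom was 2.76 to 11.5, and none was identical. Only libraries of the same day were compared, so this check shows only that no library is a copy of another of its day. Each library was counted as 1 sample, although the labels do not say whether each came from a separate bird. The planned test of the summed share was not made, since the same values had chosen the genes, and lists that need gene names were not analysed here.

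Named genes were the one with the largest ratio of E20 to E21, the one with the highest E20 mean (the same gene), and the 2 with the largest rise at E17 among those with an adjusted p under 0.05 and no overlap, plus 1 singled out after its values were seen. Alternatives were DESeq2 1.42.0, other scalings, no filter, fits of 2 days, a replicate block and leaving out libraries.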

Additional observations from a re-analysis of the deposited data

Results flagged for a closer look

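In 3 groups of libraries of a named gene, and in 1 of the summed share, a single library stood far from the others of its day by Dixon's criterion, which chance passes in about 1 of 20 groups. ENSGALG00000028612.2 had 18495 normalised counts in E15 replicate 6, where the next E15 library had 9173, and 32146 in E19 replicate 1, where the next E19 library had 9629. ENSGALG00000001926.5 had 7944 normalised counts in E19 replicate 1, below the next lowest E19 library with 12027. The 24 E21-low genes together held 3.81% of the counts of E19 replicate 1, and the next E19 library had 2.69%. Of these 4 values 3 come from E19 replicate 1, in which the 2 genes with the highest E20 means stood apart in opposite directions. The summed share is not a separate observation, since ENSGALG00000028612.2 had 21705 of the 941808 counts of that library. In the same library 11 of the 24 genes lay below their E19 mean of log2 CPM. The cause was not tested.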

How the results depend on the processing

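The number of genes that met the rule was 15 with library totals as the scale, 9 of them among the 24, and 24 with TMM-scaled CPM, 23 of them shared. It was 83 with a fall of at least 1.5 times and 8 with a fall of at least 3 times. With library totals 4 were higher and 6 lower at E17, 1 higher and 4 lower at E19, and 7 lower at E20. The shares over all genes tested were then 3.14% and 25.3%, 5.49% and 21.1%, and 5.56%. With no filter on low counts 1 was lower at E17 and 2 were higher at E19, against 4.89% and 5.98% of all genes. Leaving out each library in turn gave 20 to 29 genes by the rule. Of the 24, 6 to 7 were higher and 1 to 4 lower at E17, and 1 to 5 were higher at E19. At E20, 9 to 13 were lower, and at E21, 22 to 24 were lower. Over all genes tested, 7.05% to 10.02% were then higher and 5.75% to 8.05% lower at E17. The shares were 8.60% to 9.54% higher at E19, 11.8% to 13.6% lower at E20 and 5.92% to 8.66% lower at E21. The same-numbered libraries of successive days showed little shared deviation over all genes tested. Of 18 pairs, 0 had a correlation of deviations over 0.1 (-0.07 to 0.07), and 1 of 18 libraries correlated best with its own number. A link in a part of the genes was not tested. With the replicate block 3 genes rose at E19, where 8.90% of all genes tested were called higher.

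Left out singly, the libraries gave shares of counts of 2.79% to 3.03% at E15, 2.92% to 3.01% at E17, 2.52% to 2.86% at E19, 2.35% to 2.72% at E20 and 0.634% to 0.66% at E21. The shares without the most counted member, ENSGALG00000001926.5, were 2.09%, 1.89%, 1.93% and 0.369% at E15, E17, E19 and E21. Without the 20 most abundant genes, which include that gene and ENSGALG00000028612.2, they were 1.59%, 2.01%, 1.77%, 1.29% and 0.381% on the 5 days. For ENSGALG00000028612.2 the step from E19 to E20, -0.19, turned to 0.16 with library totals, 0.011 with the replicate block and 0.27 without E20 replicates 4 and 5, and ran from -0.43 to 0.50 with single libraries left out. For ENSGALG00000028567.3 the step from E17 to E19 was -0.00501 with library totals. DESeq2, its size factors and fits of only the 2 days moved no count of calls by more than 1.5 times. Where a value moved, the cause was not tested.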

Other observations

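Over the 24 genes and 5 days, 11 of 120 groups of libraries (9.17%) held a library far from the rest by Dixon's criterion, against 5.87% over the 3480 tested genes with an E20 mean of at least 20 and about 1 in 20 by chance. No library accounted for more than 2 of the 11. E20 replicates 4 and 5, in which most of the 24 genes were low, accounted for none. The criterion uses the gap between an extreme library and its nearest neighbour, so libraries that are low together hide each other. Nothing is read from that absence.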
